A study of Mus musculus with 6 samples.

Results

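The core cardiac transcription factors described here are 10 genes, namely the GATA zinc-finger factors Gata4 and Gata6, the homeobox factor Nkx2-5, the MADS-box factors Mef2a, Mef2c, Mef2d and Srf, the T-box factors Tbx5 and Tbx20, and the basic helix-loop-helix factor Hand2. They were found by name, through the GENCODE M21 symbol of each Ensembl identifier, and all 10 were present among the 54532 identifiers of the expression table. The series holds 6 RNA-seq libraries from primary heart muscle cells of newborn mice, in 2 groups of 3 biological replicates. In the AdGFP group the cells carried the genotype Rit1 +/+ and received the GFP control adenovirus. In the AdCre group they received the Cre recombinase adenovirus and carried Rit1 M90I/+, a missense change in a RAS-related GTPase that is found in Noonan syndrome. Per the study's methods, hearts were taken 1 to 3 days after birth at about 1 heart per well, cells that stuck early to plastic were discarded, virus was added 3 days after isolation and RNA was collected 6 days after infection. Both groups came from mice bearing the engineered Rit1 locus, in which Cre switches on the variant. There was no group with Cre and without the variant, so the variant and the recombinase cannot be told apart. What each replicate was (a litter, a pool or a culture day) is not given in the sources used here, and p-values measure the spread between these samples.

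The 10 factors form a network that switches on and maintains the heart muscle programme. Gata4 binds DNA together with Nkx2-5, Tbx5 and Hand2 at genes of contraction and of natriuretic peptides, Mef2 proteins turn kinase and calcium signals into transcription, and Srf binds CArG boxes in genes of the actin cytoskeleton. Srf works with myocardin in muscle genes, with myocardin-related factors in cytoskeletal genes and with ternary complex factors of the ETS family, which are phosphorylated by ERK, in immediate-early genes. RIT1 acts upstream of the ERK pathway, and the comparison asks how the factors and the genes they act on stood once the variant had been induced.

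The promoters of 4 genes show the letters through which the factors are known to act. Each run is the 250 bases before the RefSeq start of the gene, from GRCm38.p6, written 5′ to 3′ on the strand of the gene, with the matched letters in capitals. Srf is shown because it carries sites for itself and for an ETS factor. Actc1 and Acta1 (cardiac and skeletal actin) are shown because the search found 1 CArG box in each and their levels differed in opposite directions. Nppa (atrial natriuretic peptide) is shown because it holds sites for GATA, NKX2-5 and T-box factors.
Srf, chr17:46556163-46556412, minus strand: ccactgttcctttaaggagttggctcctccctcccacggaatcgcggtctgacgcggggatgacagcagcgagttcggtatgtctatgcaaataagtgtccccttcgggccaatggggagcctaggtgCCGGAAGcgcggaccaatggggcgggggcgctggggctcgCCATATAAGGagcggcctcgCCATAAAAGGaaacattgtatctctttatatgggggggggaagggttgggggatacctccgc
Actc1, chr2:114052876-114053125, minus strand: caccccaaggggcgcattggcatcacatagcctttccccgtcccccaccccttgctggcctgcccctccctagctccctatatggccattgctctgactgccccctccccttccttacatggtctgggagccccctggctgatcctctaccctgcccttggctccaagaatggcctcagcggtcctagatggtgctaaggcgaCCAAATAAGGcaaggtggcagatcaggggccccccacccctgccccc
Acta1, chr8:123894776-123895025, minus strand: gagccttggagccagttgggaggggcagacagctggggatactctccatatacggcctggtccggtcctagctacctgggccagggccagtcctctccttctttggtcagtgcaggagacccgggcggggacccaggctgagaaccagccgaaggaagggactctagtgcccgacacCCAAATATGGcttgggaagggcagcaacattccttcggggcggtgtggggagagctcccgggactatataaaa
Nppa, chr4:148000472-148000721, plus strand: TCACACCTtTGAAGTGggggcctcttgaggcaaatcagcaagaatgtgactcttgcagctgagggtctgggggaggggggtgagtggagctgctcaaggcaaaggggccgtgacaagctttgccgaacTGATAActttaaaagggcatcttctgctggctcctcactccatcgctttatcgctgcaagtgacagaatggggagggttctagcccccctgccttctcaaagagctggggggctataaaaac
In Srf the capitals mark an ETS site at bases -122 to -116 and CArG boxes at bases -82 to -73 and -62 to -53 from the start. The single CArG box found by the search lay at bases -47 to -38 in Actc1 and at bases -73 to -64 in Acta1. In Nppa the T-box letters, read on the opposite strand, spanned bases -250 to -243, the NKX2-5 letters -241 to -235 and the GATA letters -122 to -117, with no overlap. The searches covered both strands. They used the usual consensus of the CArG box and of the MEF2 site. A GATA site was read as AGATAA, or with T as its first letter. An ETS site was read as CCGGAAG, with no mismatch allowed in any window. For NKX2-5 the letters searched were TNAAGTG, where N stands for any base of the set. For T-box factors the letters searched were AGGTGTGA, again on either strand.

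The level of each factor was read as FPKM, that is fragments for each kilobase of exon after scaling by depth, which allows genes to be compared per length. In AdGFP the 3 most abundant factors were Nkx2-5 at 73.3 ± 10.4 FPKM, Gata4 at 71.4 ± 11.7 and Tbx20 at 61.5 ± 3.35 (SD, n = 3), whose ranges overlapped in that order. Hand2, Srf, Gata6 and Mef2d followed with means from 38.0 down to 20.7 FPKM, each overlapping the next, and Mef2a stood apart at 14.1 ± 0.785. Mef2c and Tbx5 were lowest, each at 5.03 FPKM, and could not be told apart. In AdCre the order changed at the top, where Gata4 stood apart at 57.9 ± 2.37 FPKM, above Tbx20 at 50.4 ± 1.99 and Nkx2-5 at 45.8 ± 10.4, which overlapped. Nkx2-5 thus went from the first rank to the third. Each factor rested on 428 to 19685 reads per sample, for which counting error was at most 0.07 on the log2 scale.

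**Figure D1:**
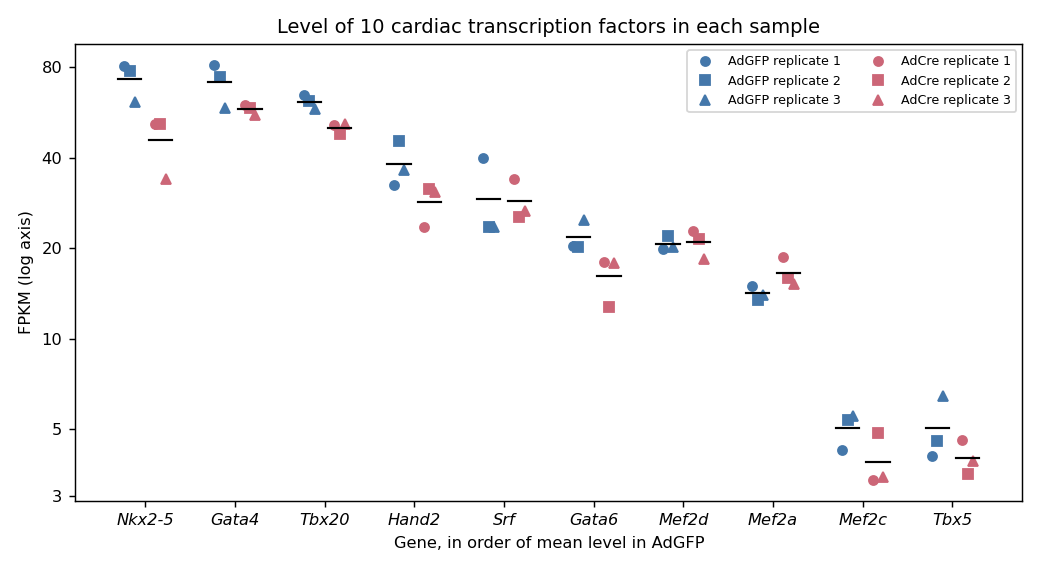
Level of each factor in the 6 samples, in FPKM on a log axis, with genes ordered by their AdGFP mean. Blue points are AdGFP, red points AdCre, symbols give the replicate number and black lines the group mean. Nkx2-5, Tbx20, Hand2 and Gata6 are lower in every AdCre sample than in every AdGFP sample, Mef2a is higher, and the other 5 overlap.

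Compared with AdGFP, 7 of the 10 factors had a lower mean log2 level in AdCre and 3 a higher one, where 50.4% of the 13794 genes tested were lower. The median log2 fold change of the 10 was -0.29, against -0.0022 over all genes tested. The 3 AdCre values lay below all 3 AdGFP values for 4 factors (Nkx2-5, Gata6, Hand2 and Tbx20), where 8.02% of all genes did so, and above them for 1 (Mef2a), where 7.36% did so. In the limma fit, with Benjamini-Hochberg adjustment over all genes tested, 0 of the 10 passed an adjusted p of 0.05, 3 had an unadjusted p under that value (10.2% of all genes did), and 0.00725% of all genes were called, which is 1 gene. Same-numbered AdCre and AdGFP samples deviated together from their group means. This pairing was read from these same values, and the labels give only a replicate number. A fit with the replicate number as a block, which depends on that pairing, called 1 factor, Nkx2-5, as lower. That fit called 6.15% of all genes, 3.51% lower and 2.64% higher. With the block, 7 of the factors had an unadjusted p under 0.05, 6 of them lower, where 24.7% of all genes did. Within pairs of same-numbered samples, 6 factors were lower in AdCre in 3 of 3 pairs (24.5% of all genes) and 1 was higher in 3 of 3 (23.9%). An exact permutation test of 3 against 3 samples cannot go below p = 0.1 (two-sided), which is the value of the 5 factors whose groups did not overlap.

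**Figure D2:**
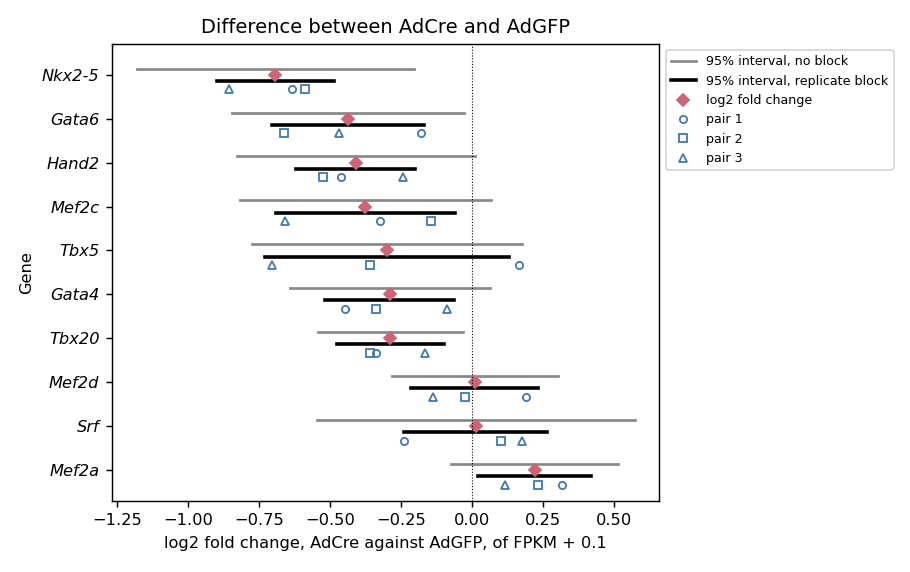
Log2 fold change of each factor, AdCre against AdGFP, on the log2 scale of FPKM with 0.1 added. Diamonds are the fold changes, grey and black lines their 95% intervals in the fits without and with the replicate block, and open symbols the 3 within-pair differences. Nkx2-5 lies farthest to the left, with pairs between -0.85 and -0.59, and Mef2d and Srf lie at 0.01.

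Nkx2-5, a homeobox factor of the earliest heart field and of the conduction system, lies at chr17:26838664-26845009 (minus strand, GRCm38). Its levels were 80.7, 77.8 and 61.3 FPKM in AdGFP 1 to 3 and 51.9, 51.7 and 33.9 FPKM in AdCre 1 to 3. Every AdCre value lay below the lowest AdGFP value, and replicate 3 was the lowest of its group on both sides. The AdCre mean was lower, as a change of -37.4%, and the log2 fold change was -0.69 ± 0.21 (SE), with a 95% interval of -1.18 to -0.20. Without the block this had an adjusted p of 0.34 in limma. With the block the same log2 fold change had an SE of 0.08 and an adjusted p of 0.0188. Pair differences were -0.63, -0.59 and -0.85 on the log2 scale. The blocked call held in 8 of 12 settings of that fit. It was lost without pair 2 (adjusted p = 0.0593), without pair 3 (0.0882), without a filter on low genes (0.077) and without the mean-variance trend (0.077).

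Gata4 and Gata6 are zinc-finger partners of Nkx2-5 with overlapping roles in the developing myocardium. Gata4 (chr14:63198922-63271692) measured 81.6, 74.0 and 58.7 FPKM in AdGFP 1 to 3 and 59.9, 58.6 and 55.3 FPKM in AdCre 1 to 3. The AdGFP values were spread widely and the lowest fell within the narrow AdCre range, so the groups overlapped. Its log2 fold change was -0.29 ± 0.15, with an adjusted p of 0.588 in limma and 0.129 with the block, and it was -0.19 without AdGFP replicate 1. Gata6 (chr18:11052064-11085635) measured 20.3, 20.1 and 24.7 FPKM in AdGFP and 17.95, 12.7 and 17.8 FPKM in AdCre. All AdCre values were below all AdGFP values, with replicate 2 of AdCre the lowest. The log2 fold change of Gata6 was -0.44 ± 0.17, with an adjusted p of 0.469 in limma and 0.0767 with the block, and it was -0.27 without AdCre replicate 2. The 2 genes summed to 93.1 ± 9.29 FPKM in AdGFP and 74.1 ± 3.40 in AdCre (exact permutation p = 0.1, two-sided, n = 3). Gata4 took 76.3 ± 5.24% of that sum in AdGFP and 78.2 ± 3.48% in AdCre, a difference within the spread (exact permutation p = 0.7). The long noncoding RNA 1010001N08Rik, antisense to Gata6 with a shared 1.4% of the exon bases of Gata6, went from 1.67 ± 0.249 to 1.07 ± 0.177 FPKM without overlap (adjusted p = 0.424 in limma, 0.087 with the block). It is named because it adjoins a factor.

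Tbx20 and Tbx5 are T-box factors of the chambers and the septa. Tbx20 (chr9:24718138-24774303), the member with the most reads, stood at 64.7, 61.7 and 58.0 FPKM in AdGFP and 51.2, 48.1 and 51.8 FPKM in AdCre. The 2 groups were tight and did not overlap. Its log2 fold change was -0.29 ± 0.11, with an adjusted p of 0.446 in limma and 0.0892 with the block. Tbx5 (chr5:119832668-119885219) had 4.07, 4.57 and 6.46 FPKM in AdGFP and 4.58, 3.55 and 3.92 FPKM in AdCre. Replicate 3 of AdGFP was the highest, the groups overlapped, and pair 1 went up (0.17) where pairs 2 and 3 went down (-0.36 and -0.70). The log2 fold change of Tbx5 was -0.30 ± 0.20, and its adjusted p was 0.694 in limma and 0.354 with the block. Much of it rested on replicate 3 of AdGFP, without which it was -0.11, and in the blocked fit it was -0.0951 without pair 3 and -0.53 without pair 1.

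Hand2, a basic helix-loop-helix factor needed for the right ventricle, lies at chr8:57320983-57324633. Its levels were 32.4, 45.4 and 36.3 FPKM in AdGFP and 23.5, 31.6 and 30.7 FPKM in AdCre. The highest AdCre sample was just below the lowest AdGFP sample, and in both groups replicate 1 was lowest and replicate 2 highest. The log2 fold change was -0.41 ± 0.18, with an adjusted p of 0.505 in limma and 0.0511 with the block. A share of 19.6% of the exon bases of Hand2 lies opposite the long noncoding RNA Hand2os1, and whether counting used strand is not given in the sources used here, so their reads may not have been separated. Hand2os1 measured 2.39, 3.26 and 2.44 FPKM in AdGFP and 1.14, 1.84 and 1.63 FPKM in AdCre. It had a log2 fold change of -0.78 ± 0.23 (adjusted p = 0.335 in limma) and fell with the block (adjusted p = 0.0428).

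The Mef2 factors are MADS-box proteins whose activity is held down by class II histone deacetylases. Mef2a (chr7:67231163-67372858) measured 15.0, 13.5 and 13.96 FPKM in AdGFP and 18.7, 15.9 and 15.1 FPKM in AdCre. It was the one factor whose AdCre values all lay above the AdGFP values, though the gap between the closest samples was small. Its log2 fold change was 0.22 ± 0.12, with an adjusted p of 0.624 in limma and 0.166 with the block, and it was 0.13 without AdCre replicate 1. Mef2c (chr13:83504034-83667080) went the other way, at 4.25, 5.35 and 5.50 FPKM in AdGFP and 3.38, 4.84 and 3.45 FPKM in AdCre. The second AdCre sample lay within the AdGFP range. Its log2 fold change was -0.37 ± 0.19, with an adjusted p of 0.571 in limma and 0.149 with the block, and it was -0.23 in the blocked fit without pair 3. Mef2d (chr3:88142372-88172086) had 19.9, 21.9 and 20.2 FPKM in AdGFP and 22.8, 21.5 and 18.3 FPKM in AdCre. The groups lay on top of one another, with a log2 fold change of 0.01 ± 0.12, a 95% interval of -0.28 to 0.30 and an adjusted p of 0.991 in limma. Its direction depended on single samples and 8.9% of its exon bases face an antisense gene.

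Together the 3 Mef2 genes summed to 39.8 ± 0.789 FPKM in AdGFP and 41.3 ± 4.06 in AdCre (exact permutation p = 0.6). Within that sum Mef2d took 51.8 ± 1.68% and 50.5 ± 0.694%, the largest share of FPKM in both groups. Of recovered reads, which are not scaled by exon length, Mef2a took the largest share, 50.6 ± 3.24% and 56.7 ± 3.09%. On FPKM again, Mef2a took 35.5 ± 2.62% in AdGFP and 40.1 ± 2.20% in AdCre, and it gained share in each pair, by 3.41, 4.49 and 5.75 percentage points. Mef2c took 12.6 ± 1.58% and 9.44 ± 1.96%, with pair differences of -3.33, -1.68 and -4.55 points. Both share ranges overlapped between groups (exact permutation p = 0.2 for each, where 0.1 is the smallest possible).

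Srf lies at chr17:46548329-46556175. It measured 40.04, 23.6 and 23.5 FPKM in AdGFP and 33.9, 25.4 and 26.6 FPKM in AdCre. Replicate 1 was the highest sample of both groups, and the AdCre values lay inside the AdGFP range. The log2 fold change was 0.01 ± 0.24, with a 95% interval of -0.55 to 0.57, and the adjusted p was 0.995 in limma and 0.952 with the block. Pair 1 went down (-0.24) and pairs 2 and 3 up (0.10 and 0.18), so the direction depended on single samples.

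Across the 6 samples the factors did not move as 1 block. As a description over samples that share the group difference, Pearson's r of log2 levels was highest for Gata4 with Nkx2-5 (0.859), Gata4 with Tbx20 (0.844) and Gata6 with Tbx5 (0.833), and lowest for Mef2a with Hand2 (-0.95). The protein-coding gene whose log2 level was most alike among 12419 compared was Ccdc8 for Nkx2-5 (r = 0.9955), Ears2 for Gata4 (0.9974), Tango6 for Gata6 (0.9793), Ggnbp2 for Tbx20 (0.9934) and Adamts15 for Tbx5 (0.9787). For the rest it was Usp32 for Hand2 (0.9892), Pitrm1 for Mef2a (0.9948), Napepld for Mef2c (0.9958), Vamp1 for Mef2d (0.9719) and Blzf1 for Srf (0.9965). No test is attached, since each gene was picked for its r among so many over 6 samples.

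Markers of several cell types are given by list beside the factors, and their part in the factor levels was not tested. All 10 heart muscle markers, troponins, myosin and other sarcomere and calcium-handling genes among them, had lower means in AdCre (50.4% of all genes did). Their median log2 fold change was -0.89, and their summed level was 6798 to 11634 FPKM in AdGFP and 3884 to 5971 in AdCre. With the block 7 were called lower. That fit called 3.51% of all genes lower and 2.64% higher. Over all genes it called 0 lower and 1 higher without pair 3, and 0 without a trend. Summed fibroblast markers ran from 2601 to 4662 FPKM in AdGFP and from 2288 to 3346 in AdCre (7 of 9 tested genes lower and 2 higher, with Dcn, Lum and Col3a1 called lower with the block). Ddr2, another fibroblast marker, was among the 2, at a log2 fold change of 0.35 (adjusted p = 0.0644 in limma with the block). The 10 endothelial markers ran from 94.99 to 147 and from 139 to 206 FPKM (4 called higher, namely Eng, Flt1, Cdh5 and Egfl7), and the macrophage markers from 49.5 to 272 and from 87.8 to 343 FPKM (2 of 7 called higher, C1qb and Lyz2). Mural markers summed to 139 to 160 and 132 to 175 FPKM with none of 7 called in either fit, where 0 had an unadjusted p under 0.05 without the block and 1 with it. Epicardial markers summed to 130 to 277 and 118 to 171 FPKM, with Lrrn4 called lower and Aldh1a2 higher. Without the block limma called 0 genes of any of these marker lists. At an unadjusted p under 0.05 there were 7 heart muscle, 0 fibroblast, 3 endothelial, 0 macrophage and 1 epicardial marker (10.2% of all genes). None of the 6 red cell markers reached the level tested, and Hbb-bt and Hba-a2 were listed at 0 in all samples. In such bulk samples fewer cells of a type and less RNA per cell cannot be told apart.

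Set against the mean log2 level of the 10 muscle markers in the same sample, all 10 factors had a higher mean in AdCre, by 0.20 (Nkx2-5) to 1.11 (Mef2a) on the log2 scale, as did 97.4% of all genes tested, since the markers themselves were lower. Of the 10, 3 did so without overlap, namely Mef2a (1.11), Mef2d (0.90) and Gata4 (0.60), where 60.4% of all genes did, and the other 7 overlapped. The marker mean itself went from 8.03 ± 0.233 to 7.14 ± 0.417, a difference of -0.89. Relative to the markers Nkx2-5 changed least, from -1.84 ± 0.0550 in AdGFP to -1.64 ± 0.260 in AdCre. This scale was added after the values had been seen and was given no test.

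**Figure D3:**
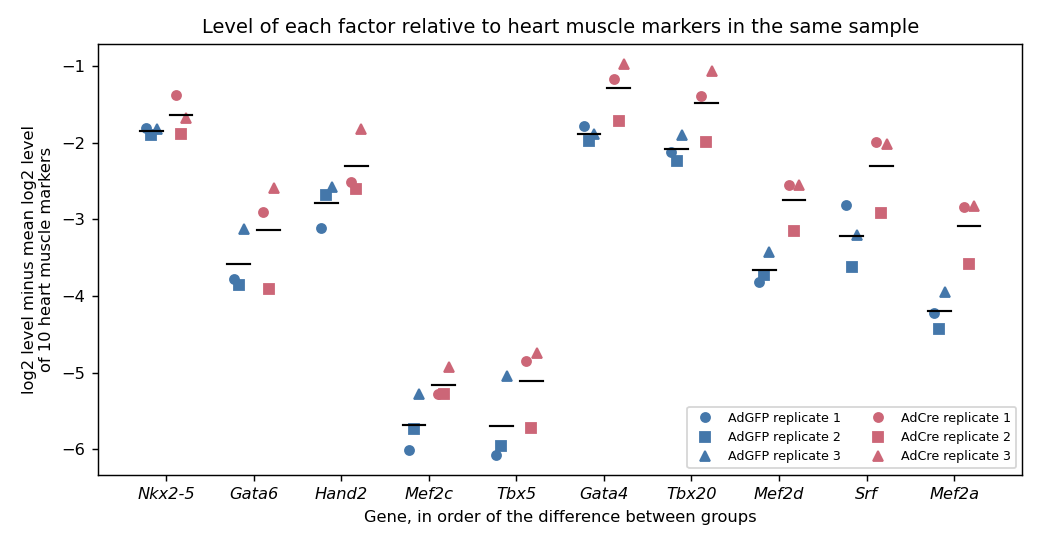
Log2 level of each factor minus the mean log2 level of 10 heart muscle markers in the same sample. Blue points are AdGFP, red points AdCre, symbols give the replicate and black lines the group mean. Nkx2-5, at the left, differs least (0.20) and Mef2a, at the right, most (1.11).

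Close relatives of the factors were mostly low. Of 13 GATA, NKX2, MEF2, T-box and HAND relatives 7 reached the level tested, 3 lower and 4 higher (2 and 5 on TPM or when the scaling factors were taken out). With the block Gata2, a blood and endothelial factor, rose from 1.099 ± 0.309 to 2.07 ± 0.470 FPKM, 0.87 higher on the log2 scale (adjusted p = 0.0474 in limma). Tbx18, an epicardial and sinus node factor, fell with the block from 19.0 ± 0.581 to 13.8 ± 0.964 FPKM (-0.45, adjusted p = 0.0441), though 20.6% of its exon bases face an antisense gene. Without the block their adjusted p was 0.365 and 0.267.

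Of 17 other cardiac factors 16 were tested, 11 lower and 5 higher (9 and 7 on TPM). With the block 3 were called, all lower, where 3.51% of all genes were called lower. Without it 0 were, with 5 at an unadjusted p under 0.05 (10.2% of all genes). Leaving out pair 3, or the trend, left 0 lower calls over all genes in the blocked fit. Irx5, an Iroquois factor of the repolarisation gradient of the ventricle, went from 7.88 ± 0.960 to 4.50 ± 0.514 FPKM without overlap, at -0.79 on the log2 scale (adjusted p = 0.0199 in limma with the block, 0.191 without). Irx4, a ventricular factor, went from 5.81 ± 2.31 to 3.73 ± 1.55 FPKM (-0.64, adjusted p = 0.0312 with the block). Hopx, a partner of Srf without DNA binding of its own, went from 26.0 ± 11.8 to 12.7 ± 2.85 FPKM (-0.94, adjusted p = 0.03 with the block), and 27.2% of its exon bases face an antisense gene.

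Among 12 coactivators 9 were lower and 3 higher (8 and 4 on TPM). With the block 4 were called lower, as were 3.51% of all genes. Without it 0 were called, and 3 had an unadjusted p under 0.05 (10.2% of all genes). The blocked fit called 0 genes of the whole set lower without pair 3, and 0 without a trend. Myocd, the muscle partner of Srf, went from 21.5 ± 2.15 to 14.9 ± 3.41 FPKM without overlap, at -0.55 on the log2 scale (adjusted p = 0.043 in limma with the block). Smyd1, a muscle methyltransferase, went from 57.4 ± 12.9 to 38.0 ± 7.81 FPKM (-0.59, 0.0286), and Kat2b, an acetyltransferase, from 29.2 ± 2.26 to 19.9 ± 3.08 FPKM (-0.56, 0.0353). Lmo7 went from 23.7 ± 5.06 to 15.8 ± 5.24 FPKM (-0.61, 0.0354).

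None of the 13 corepressors was called in either limma fit. Of them 6 were lower and 7 higher (4 and 9 on TPM or when the scaling factors were taken out). At an unadjusted p under 0.05 there was 1 without the block (10.2% of all genes) and 4 with it (24.7%). Among those with the smallest p in the blocked fit were Hdac9 (log2 difference of -0.74, adjusted p = 0.0797 there), a Mef2 inhibitor, and Zfpm2 (-0.35, 0.107), a Gata4 cofactor. Of the 8 kinases listed as acting on the factors, Prkd1, which releases Mef2 from class II deacetylases, fell with the block from 2.81 ± 0.389 to 1.42 ± 0.191 FPKM (-0.93, adjusted p = 0.0442, against 0.206 without it). The list as a whole had 5 lower and 3 higher (3 and 5 on TPM). Of the 3 ternary complex factors Elk3 rose with the block from 11.3 ± 1.75 to 15.6 ± 2.25 FPKM (0.46, adjusted p = 0.0312, against 0.416 without it), with a log2 fold change of 0.18 for Elk4 and -0.01 for Elk1, which turned positive under each of the other 4 scalings.

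**Figure D4:**
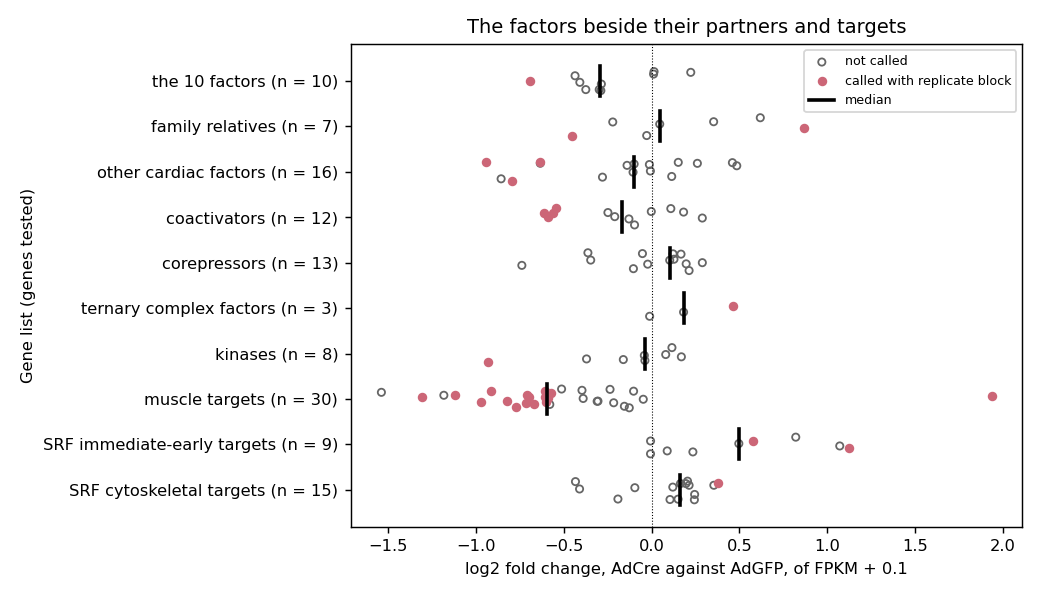
Log2 fold changes, AdCre against AdGFP, of the tested genes of each list (FPKM with 0.1 added). Filled points were called in the limma fit with the replicate block, open points were not, and black bars are list medians. The muscle targets lie to the left with a median of -0.60 and 1 gene, Acta1, far to the right at 1.94.

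Genes commonly given as muscle targets of the factors were lower in AdCre for 29 of 30, where 50.4% of all genes were. Their median log2 fold change was -0.60. On TPM, or when the scaling factors were taken out, 28 of 30 were lower and Gja5 turned positive. The list was chosen with earlier results of these data known. Of the 30, 7 are also among the muscle markers above, and the other 23 had a median of -0.57, with 22 lower. The block called 15 lower and 1 higher, where it called 3.51% of all genes lower and 2.64% higher. The fit without it called 0, with 12 at an unadjusted p under 0.05 (10.2% of all genes). Without pair 2 the blocked fit called 6 lower, and without pair 3 it called 0. Pln, the brake of the calcium pump, went from 115 ± 30.7 to 47.5 ± 18.9 FPKM without overlap, at -1.31 on the log2 scale (adjusted p = 0.0101 in limma with the block), and 64.7% of its exon bases face antisense genes. Myl2, the ventricular light chain, went from 353 ± 186 to 161 ± 75.8 FPKM (-1.12, 0.00969), and Tnni3, cardiac troponin I, from 231 ± 60.6 to 131 ± 36.8 FPKM (-0.82, 0.012). Tnnt2, cardiac troponin T, had a log2 fold change of -0.71 (0.0168) and Gja1, connexin 43, one of -0.92 (0.0214).

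The actins in this list differed in direction. Actc1 measured 4943, 3141 and 2686 FPKM in AdGFP and 1186, 2236 and 1344 FPKM in AdCre, without overlap, at a log2 fold change of -1.18 (adjusted p = 0.338 in limma, 0.0726 with the block). Acta1 measured 263, 37.5 and 16.6 FPKM in AdGFP and 470, 222 and 88.2 FPKM in AdCre. It was higher in AdCre in each pair, while the groups overlapped because replicate 1 was high in both, and it rose with the block (1.94, adjusted p = 0.0346, against 0.61 without it). How the counting treated any reads shared between the related actin genes is not given, and such sharing was not measured here. These values are therefore uncertain. Nppa went from 3299 ± 984 to 2184 ± 781 FPKM and was called lower with the block (-0.61, adjusted p = 0.0421), and 61.5% of its exon bases face an antisense gene.

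The lists of immediate-early and cytoskeletal targets of Srf had positive medians, and the contrast with the muscle targets was not tested. The 9 immediate-early targets had a median log2 fold change of 0.50, with 7 higher and 2 lower (9 higher under each of the other 4 scalings). With the block 2 were called higher, as were 2.64% of all genes. Without it 0 were called, and 4 had an unadjusted p under 0.05 (10.2% of all genes). Egr2, a zinc-finger factor induced by growth signals, rose with the block from 1.65 ± 0.193 to 3.78 ± 0.991 FPKM (1.13, adjusted p = 0.0346), and Nr4a1, an orphan nuclear receptor, from 6.41 ± 1.06 to 9.57 ± 0.920 FPKM (0.58, 0.0286). Neither overlapped between groups. Without AdGFP replicate 1 the immediate-early median was 0.21. The 15 cytoskeletal targets had a median of 0.16, with 11 higher and 4 lower. That median was 0.0693 without AdGFP replicate 2 and 0.0977 without AdCre replicate 3. Antisense genes face 67.9% of the exon bases of Tagln (higher), 23.2% in Ccn2 (higher) and 25.5% in Vcl (lower). Actg2, smooth muscle actin, was the 1 called with the block (0.38, adjusted p = 0.043). Without the block its adjusted p was 0.725, its groups overlapped, and limma called 0 of the 15, with 0 at an unadjusted p under 0.05.

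Motif counts in these lists are given as a description. In the table of promoter windows 7 of the 10 factors were matched, and the letters of a CArG box and of an ETS site were found in Srf and those of a GATA site in Hand2. Per gene, a CArG box stood in 1.62% of 27025 genes, and in 1.47% of all 32851 windows of 250 bases. It stood in 4 of 27 muscle targets with a window (Actc1, Acta1, Myl3 and Myl7), 4 of 10 cytoskeletal targets (Cnn2, Myl9, Vcl and Actg1) and 1 of 6 immediate-early targets (Egr2). Fold changes of the muscle genes with the box ran from -1.18 (Actc1) through -0.39 (Myl3) and -0.22 (Myl7) to 1.94 (Acta1) on the log2 scale. GATA letters stood in 9 of 27 muscle targets and 18.8% of all genes with a window, MEF2 letters in 2 and 3.42%, NKX2-5 letters in 2 and 11.4%, T-box letters in 2 and 1.3%, and ETS letters in 0 and 7.83%. A match describes letters in a window and does not show binding.

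Rit1 itself measured 8.55 ± 0.774 FPKM in AdGFP and 9.19 ± 0.351 in AdCre (adjusted p = 0.84 in limma), and gene-level values do not separate the 2 alleles, so they do not check the genotype.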

How the data were processed

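Per the labels, poly(A) RNA was captured on poly-T beads and cDNA synthesis was randomly primed. The authors deposited FPKM values for each of the 6 samples, unpooled. The submitters' processing notes name fastp, STAR 2.5, HTSeq 0.6.1 and mm10; which annotation was used, and whether counting heeded strand, is not given in the sources used here. Of 54532 identifiers 54495 were matched to GENCODE M21. FPKM times exon length gave whole reads (within 0.02 reads) in all 6 samples for 97.5% of the 24437 genes low enough for the step to be resolved. Recovered reads per sample were 25.3 to 26.6 M (M, megareads) in AdGFP and 26.0 to 32.4 M in AdCre, and replicates differed by far more than sampling noise (chi-square per degree of freedom at least 43.5).

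Log2(FPKM + 0.1) was tested with limma 3.58.1 (R 4.3.3) and a mean-variance trend in the 13794 genes that averaged 0.5 FPKM or more, with Benjamini-Hochberg adjustment. Fold changes on this scale understate those of low genes. All 10 factors passed the filter. Pairing was seen in the values: same-numbered samples correlated in their deviations from the group means (r = 0.568, 0.268 and 0.506, against -0.497 to 0.036 for others), so a fit with the replicate block is given too. Named genes are the 10 factors, for each list the called genes, at most 5 by smallest p, or the 3 with the smallest p where none was called, and the most alike gene of each factor; genes of the printed promoters, antisense neighbours and marker genes were named after their values were seen. The factors and lists were chosen with earlier results of these data known. Alternatives were another pseudocount, filter, scaling, trend or tool (voom on recovered reads) and samples left out. A gene that the rule names is not reported here. Scripts were tested on simulated data.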

Additional observations from a re-analysis of the deposited data

How the results depend on the processing

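Over alternative settings the log2 fold changes of the 10 factors kept direction and side of the threshold in 269 of 290 cases, passed it in 11 and reversed in 10. Settings that changed only the filter, the trend or the presence of the block leave the fold change itself the same. Such cases could not reverse and bear only on the threshold. Mef2d reversed to -0.0798 with the block leaving out pair 1, and ran from -0.0545 to 0.10 when single samples were left out. Srf reversed to -0.0313 and -0.068 with the block leaving out pairs 2 and 3, and ran from -0.12 to 0.27 without single samples. Without single samples Nkx2-5 ran from -0.81 to -0.49, Gata4 from -0.42 to -0.19, Gata6 from -0.52 to -0.27, Hand2 from -0.52 to -0.27, Tbx20 from -0.33 to -0.25, Tbx5 from -0.43 to -0.11, Mef2c from -0.54 to -0.29 and Mef2a from 0.13 to 0.285. The replicate block raised the factors called from 0 to 1 (Nkx2-5) and changed the call of no other factor. The blocked fit called 0 factors without a trend, without a filter, without pair 2 and without pair 3. It called 2 (Nkx2-5 and Gata6) without pair 1, where 772 of 13794 genes were called. By voom on recovered reads it called 3 (with Hand2), where 1546 of 13788 genes were called, against 848 in the blocked fit itself.

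Over all genes the fit without the block called 1, against 3 with pseudocount 1, 0 without a filter, 4 without a trend, 0 by voom and 0 to 2 without single samples. Those with an unadjusted p under 0.05 numbered 2168 without a filter and 1423 by voom. The blocked fit called 848 (364 higher, 484 lower), against 0 without a trend (3122 at an unadjusted p under 0.05), 17 without a filter, 1546 by voom, 149 without pair 2 and 1 without pair 3. The split was 538 higher and 337 lower on TPM, and 479 and 396 without the authors' scaling factors, an alternative chosen after seeing the data; these scalings moved the median of all genes to 0.09 and 0.06. Muscle targets called lower with the block went from 15 to 0 without a trend, 0 without a filter, 6 without pair 2 and 0 without pair 3.

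Medians of the lists (log2 fold change) were -0.29 for the factors, 0.05 for relatives, -0.10 for other cardiac factors, -0.17 for coactivators, 0.10 for corepressors, 0.18 for ternary complex factors, -0.04 for kinases, 0.50 for immediate-early and 0.16 for cytoskeletal targets, with the same value with and without the block. On TPM they were -0.21 for the factors, -0.0165 for other cardiac factors, 0.19 for corepressors, 0.27 for ternary complex factors, 0.0493 for kinases (a change of sign), -0.0825 for coactivators, 0.13 for relatives and 0.25 for cytoskeletal targets. Without scaling factors they were -0.0425, 0.16 and 0.24 for other cardiac factors, corepressors and ternary complex factors. Leaving out pairs in the blocked fit gave 0.23 for relatives (pair 2), 0.0351 and 0.0637 for corepressors (pairs 1 and 3), -0.0748 for coactivators (pair 1), -0.016 for kinases (pair 3), 0.11 and 0.26 for ternary complex factors (pairs 2 and 3) and 0.24 for immediate-early targets (pair 1). A minimum mean of 1 FPKM gave 0.23 for immediate-early targets. Without single samples the ranges were -0.34 to -0.26 for the factors, -0.11 to 0.41 for relatives, -0.16 to 0.0028 for other cardiac factors (the latter without AdCre replicate 3), 0.0456 to 0.10 for corepressors, 0.0861 to 0.26 for ternary complex factors, -0.25 to -0.11 for coactivators, -0.11 to -0.0047 for kinases, 0.0693 to 0.24 for cytoskeletal targets and 0.21 to 0.55 for immediate-early targets. With recovered reads in place of FPKM the Mef2c share differed by -4.99 percentage points. The causes were not tested.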
